A study of Mus musculus with 2 samples.

Results

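The genes described here encode the interleukin-1 (IL-1) ligands, their antagonist and the IL-1 and IL-18 receptors of the mouse. There are 10 of them among the 21523 protein-coding genes used: the ligand genes Il1a and Il1b, the antagonist gene Il1rn, and the receptor genes Il1r1, Il1r2, Il1rl1, Il1rl2, Il18r1, Il18rap and Il1rap. They were listed by name, and the list was chosen by the measured peak positions at Il1a and Il1b, where peaks lay close together. The same positions can therefore support nothing about the list, and every count below is a description with no test.

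The study mapped where HLF (hepatic leukemia factor, a PAR bZIP transcription factor) sits on DNA in cells enriched for haematopoietic stem and progenitor cells (Lin-Sca-1+c-Kit+, from C57BL/6 mice 8-10 weeks old, tissue given as blood). The group used here, FLAG-HLF, is 1 anti-FLAG chromatin immunoprecipitation sequencing (ChIP-seq) library from cells infected with a MigR1 retrovirus carrying 3xFLAG-HLF. The other group, FLAG ctrl, is 1 library from cells given the MigR1 empty vector and was not analysed here. Cells of both groups were grown for 5 days with SCF, IL-7, Flt3L and IL-3. The tagged protein was delivered by a virus and the labels do not say how many animals were pooled. Whether the control entered the peak calling is not stated, so HLF binding and background of the anti-FLAG antibody cannot be told apart at a single peak. The processed file lists 3153 peaks, each 400 bp wide, with no height and no read count. Depth is therefore unknown, no peak can be called stronger than another, and a gene without a peak is only a gene without a listed peak. A peak list holds no expression values, so the cell type could not be checked against its markers.

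IL-1α and IL-1β are inflammatory cytokines that bind the receptor IL1R1, which then pairs with the accessory protein IL1RAP and signals through MyD88, IRAK kinases and NF-κB. The pathway is restrained by the antagonist IL1RN and by the decoy receptor IL1R2. Related receptors of the same family bind IL-33 (IL1RL1, also called ST2), IL-36 (IL1RL2) and IL-18 (IL18R1 with IL18RAP). In bone marrow, IL-1 is known to drive stem and progenitor cells toward myeloid output. PAR bZIP proteins bind DNA as dimers, at palindromic sites close to TTACGTAA.

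Peaks lay near the ligand genes and near the IL-18 receptor genes, and none lay inside any of the 10 genes. A peak centre fell in the body of 0 of 10 genes, where 6.94% of all protein-coding genes had one. Within 20 kb of the gene ends, 4 of 10 had a peak (Il1a, Il1b, Il18r1 and Il18rap), against 15.3% of all protein-coding genes. Within 100 kb, 5 of 10 had one, Il1rl1 being the addition, against 36.9%. The count at 20 kb includes the ligand genes the list was picked for, so nothing is read from its distance to the background. These counts rest on 5 distinct peaks, since neighbouring genes share them. At the 20 kb limit the nearest gene inside was Il18rap at 13.6 kb and the nearest outside was Il1rl1 at 36.3 kb. At the 100 kb limit the nearest outside was Il1rl2 at 134 kb.

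**Figure D1:**
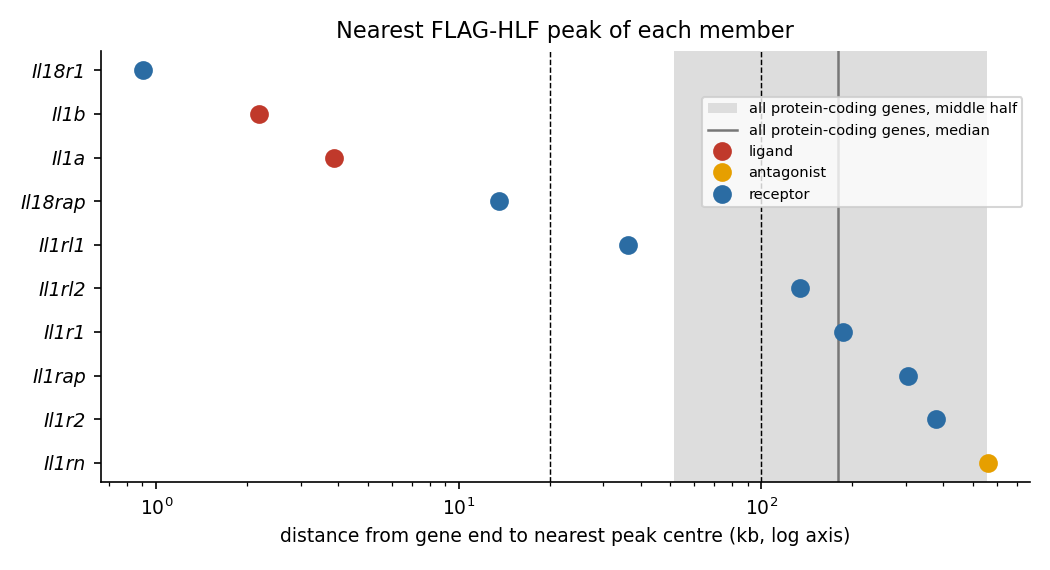
Distance in kb (log axis) from each gene's nearer end to the centre of its nearest FLAG-HLF peak, 1 point per gene, coloured by role, in 1 library. The grey band and line give the 25th to 75th percentile (51.3 to 556 kb) and the median (179 kb) of all protein-coding genes, and dashed lines mark 20 and 100 kb. Il18r1, Il1b, Il1a and Il18rap lie to the left of 20 kb, and Il1rn lies farthest right at 559 kb.

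The ligand genes Il1a and Il1b lie side by side on chromosome 2 and are both transcribed toward lower coordinates (minus strand). Il1a (gene ID 16175; mm10 chromosome 2, 129299609 to 129310186) and Il1b (gene ID 16176; 129364569 to 129371164) are separated by 54.4 kb. There were 4 peaks in or beside that stretch, at chr2:129313848-129314247, chr2:129338063-129338462, chr2:129360134-129360533 and chr2:129373158-129373557. The first 3 lie between the genes and the last lies just past the start of Il1b.

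Each ligand gene had a peak a few kb upstream of its annotated start. The peak nearest to Il1a was centred 4.08 kb upstream of its start, 3.86 kb beyond its 5′ end. The peak nearest to Il1b was centred 2.22 kb upstream of its start. That peak also lies inside Il1bos, a long noncoding RNA gene that overlaps the first part of Il1b, so the position alone does not give it to Il1b. By a rule written after these positions were seen, a peak centre up to 5 kb upstream of an annotated start was present at 2.4% of the 17274 protein-coding genes with a promoter entry. None of the other 8 genes had one.

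The remaining peaks lay between the genes. One was centred 4.24 kb beyond the 3′ end of Il1b, which is 50.4 kb upstream of the Il1a start. The other was centred near the middle of the stretch, 28.3 kb upstream of the Il1a start and 26.3 kb beyond the 3′ end of Il1b. Its closest annotated gene was the pseudogene Gm18333, at 8.37 kb. Other annotated genes at the locus included the small nuclear RNA gene Gm25703, 1.28 kb from the first peak. The long noncoding RNA gene Gm14023 lay 6.22 kb from that peak, and Ckap2l, a mitotic spindle gene, ended 16.8 kb from it. The pseudogene Spcs2-ps lay 4.81 kb from the peak upstream of Il1b.

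**Figure D2:**
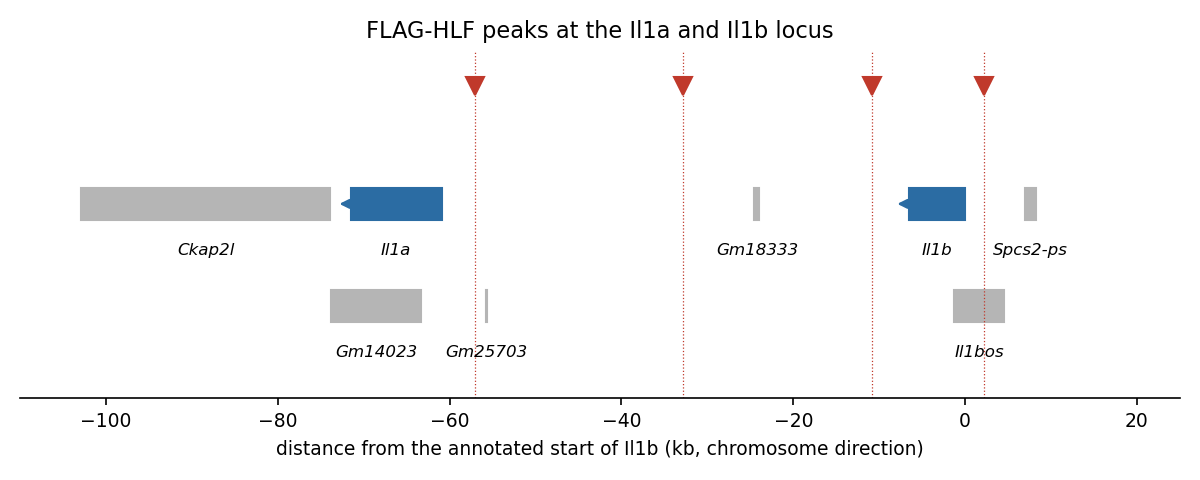
Map of the Il1a and Il1b locus in kb from the annotated start of Il1b, in chromosome direction. Red triangles with dotted lines are the 4 FLAG-HLF peak centres, blue bars are the ligand genes with an arrow for the direction of transcription, and grey bars are other annotated genes (direction not drawn). No triangle falls on a blue bar, and 1 falls within Il1bos.

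Counted with a 20 kb flank, Il1a had 1 peak and Il1b had 2. At least 2 peaks in that region were found at 585 protein-coding genes (2.72%). With a 100 kb flank both genes had the same 4 peaks, and 4 or more were found at 237 protein-coding genes (1.1%). Given to one protein-coding gene each, 1 of these peaks went to Il1a and 3 to Il1b. Of the protein-coding genes, 4 had the highest count at 20 kb, with 5 peaks each: M1ap, Sgms1, Gab2 and Asph. Arid1b was the next by the order used, with 4. These 5 are longer than the ligand genes and held at least 3 of their peaks inside the body. Length did not set all such genes apart: Trib1, also with 4 peaks, is 8446 bp long and shorter than Il1a at 10578 bp. For genes within 1.5 times the length of Il1a, 13.7% had a peak at 20 kb, and for those of like length to Il1b 12.2% did.

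The 4 ligand-locus peaks were spread over the locus. The gaps between neighbouring centres were 24.2, 22.1 and 13.0 kb, and over the whole list the median gap was 268 kb. Gaps of 24.2 kb or less made up 11.5% of all 3133 gaps. Joined at a limit of 25 kb, the 4 peaks formed one run of 59.3 kb, and the largest of its gaps lay only just under that limit. There were 309 runs of 2 or more peaks in the list, of which 8 held at least 4 and 1 held 5, at B4galt5. The Trib1 run of 4 peaks spanned 4.47 kb and the Irf2bp2 run 25.4 kb, while a run at Kat7 and Fam117a spanned 61.3 kb. The ligand run was the second widest of the 8. Counted another way, 21 of the 3153 peaks opened a stretch of 60 kb that held at least 4 peaks. On either side the locus was bounded by 815 kb and 219 kb without a listed peak. Of all gaps, 24.2% were at least as long as the former and 54.5% at least as long as the latter.

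The peaks themselves lie outside the sequence table used, so the ligand promoters are shown as the nearest sequence to them. Each window runs from 250 bases before the annotated start to 50 after it, 5′ to 3′ on the gene's strand, from RefSeq on GRCm38.p6, which shares its chromosome coordinates with mm10. The windows of Il1a (chr2:129309923-129310222, minus strand) and Il1b (chr2:129371090-129371389, minus strand) are given with capitals for any match to the letters searched.
Il1a: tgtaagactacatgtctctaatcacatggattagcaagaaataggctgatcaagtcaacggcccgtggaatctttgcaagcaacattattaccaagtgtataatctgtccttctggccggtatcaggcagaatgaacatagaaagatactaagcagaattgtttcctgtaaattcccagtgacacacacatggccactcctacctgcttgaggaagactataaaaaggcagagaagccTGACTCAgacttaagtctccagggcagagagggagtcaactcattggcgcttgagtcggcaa
Il1b: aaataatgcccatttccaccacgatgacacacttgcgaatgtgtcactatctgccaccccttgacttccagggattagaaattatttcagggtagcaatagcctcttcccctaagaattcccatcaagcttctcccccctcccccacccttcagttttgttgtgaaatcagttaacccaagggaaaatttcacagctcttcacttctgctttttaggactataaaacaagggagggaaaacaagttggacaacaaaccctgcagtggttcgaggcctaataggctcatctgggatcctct
The letters searched, on both strands, were TTACGTAA and TTATGTAA for PAR bZIP proteins, TTGCGCAA for C/EBP, TTGCGTAA for a bZIP hybrid, TGACTCA for AP-1, TGTGGTT for RUNX and GAGGAAGT for ETS factors. The Il1a window held a single match, TGACTCA, starting 12 bases before the annotated start. The AP-1 letters were found in 5.22% of all 32619 windows. The Il1b window held none of the letters. Both windows were lower in GC than the median window (53.0%), at 44.7% for Il1a and 45.7% for Il1b.

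The antagonist gene had no peak near it. Il1rn (gene ID 16181; chromosome 2, 24336860 to 24351491), whose product occupies IL1R1 without signalling, is on the same chromosome as the ligand genes but far from them. Its nearest peak lay 559 kb beyond its 3′ end, inside Ehmt1, a histone methyltransferase gene. This was the longest distance of the 10, and 75.1% of protein-coding genes were as near to a peak or nearer. The gene sat in a stretch of 2015 kb between neighbouring peaks, which also held the IL-36 genes of the same ligand family.

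The receptor genes on chromosome 1 form a cluster with 1 peak. Il1r2, Il1r1, Il1rl2, Il1rl1, Il18r1 and Il18rap follow each other over 467 kb (40084692 to 40551707), all on the plus strand. The single peak, chr1:40501558-40501957, lay between Il18r1 and Il18rap, the genes of the IL-18 binding chain and its signalling partner. Its centre was 903 bp beyond the 3′ end of Il18r1 (gene ID 16182; 40465552 to 40500854) and 13.6 kb upstream of the start of Il18rap (gene ID 16174; 40515362 to 40551707). No other peak fell in the cluster or within 100 kb of its ends. The previous peak on the chromosome was 924 kb away and the next was 11797 kb away. Of the 3133 gaps in the list, 8 were as long as the latter, itself included, and it contained 37 whole protein-coding genes.

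All other receptor genes of the cluster took their distance from that same peak. Il1rl1 (gene ID 17082), encoding the IL-33 receptor ST2, ended 36.3 kb before it, and its nearer annotated start was 62.1 kb away. Il1rl2 (gene ID 107527), the IL-36 receptor gene, was 134 kb away. Il1r1 (gene ID 16177), the signalling IL-1 receptor gene, was 186 kb away, and Il1r2 (gene ID 16178), the decoy receptor gene, was 377 kb away. Among protein-coding genes, 50.8% were as near to a peak as Il1r1 or nearer, and 67.4% as near as Il1r2.

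**Figure D3:**
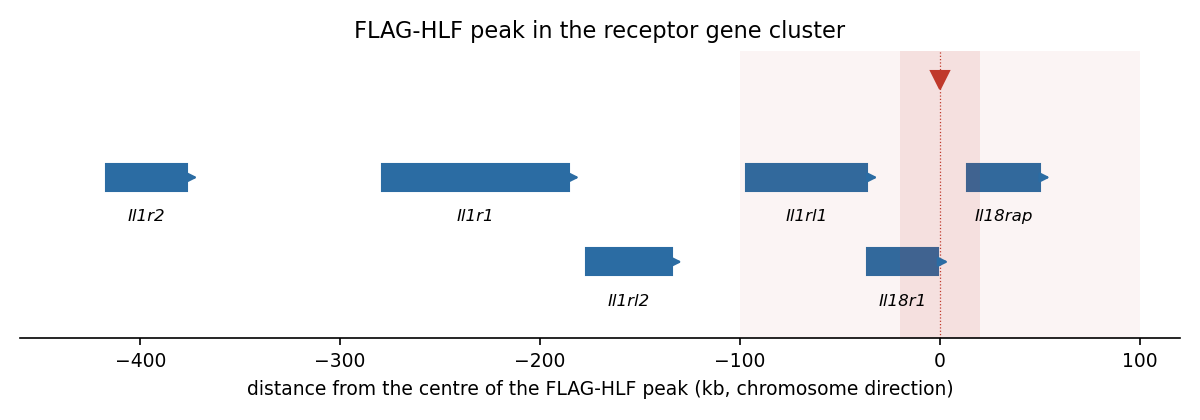
Map of the 6 receptor genes on chromosome 1 in kb from the centre of the FLAG-HLF peak (red triangle), in chromosome direction. Blue bars are genes with an arrow for the direction of transcription, and the darker and lighter shading mark 20 and 100 kb around the peak. Il18r1 and Il18rap reach into the darker band, Il1rl1 into the lighter one, and Il1rl2, Il1r1 and Il1r2 lie outside both.

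The shared co-receptor gene Il1rap (gene ID 16180; chromosome 16, 26581509 to 26730128) was the longest of the 10 at 149 kb. Neither its body nor the 100 kb on each side held a peak. The nearest was 305 kb away on its 5′ side, and the protein-coding gene closest to that peak was Cldn1, a tight junction gene, at 79.7 kb. Of protein-coding genes within 1.5 times its length, 26% had one inside or less than 20 kb away. At 100 kb that share was 42.7%.

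The promoter of Il1rl2 alone among the 10 genes held the PAR bZIP letters, and it had no listed peak. The table had 16 promoter windows for the 10 genes, and no peak overlapped any of them, where 227 of all 32619 windows (0.696%) were overlapped. The Il1rl2 window (chr1:40324339-40324638, plus strand) is shown because it held TTATGTAA at 2 places, in capitals, starting 192 and 144 bases before the annotated start.
Il1rl2: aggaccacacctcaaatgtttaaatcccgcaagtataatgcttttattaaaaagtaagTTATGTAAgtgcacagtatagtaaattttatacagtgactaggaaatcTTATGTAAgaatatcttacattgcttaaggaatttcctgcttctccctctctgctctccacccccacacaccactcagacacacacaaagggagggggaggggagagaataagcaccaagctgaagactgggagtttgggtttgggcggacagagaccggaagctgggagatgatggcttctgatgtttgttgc
By a cut taken from the Il1rl2 window itself, at least 2 matches to TTATGTAA were found in 7 windows of the table (0.0215%). Nothing is read from this share. Either PAR bZIP spelling was found in 1.06% of all windows and in 6.61% of the 227 windows a peak overlapped. Allowing 1 mismatch to TTACGTAA added no further window of the 10 genes. Over all windows, the ETS letters GAGGAAGT were found in 3.22% and the RUNX letters in 5.29%. Il18rap held GAGGAAGT starting 79 bases before its start and the RUNX letters within its first transcribed bases. A window of Il18r1 also held the RUNX letters, and the first of the Il1rn windows held the AP-1 letters. These matches are letters in a window and show no binding.

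Many genes that process IL-1 or carry its signal inside the cell had a peak. Of 43 other pathway genes, 17 (39.5%) had one inside or no more than 20 kb outside and 11 (25.6%) had one in the body, against the 15.3% and 6.94% of all protein-coding genes given above. The list was chosen with earlier results of these data known and was not matched for gene length. Nothing is read from the difference, which was not tested.

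The other ligands and antagonists had none at 20 kb. These 7 genes (Il18, Il33, Il36a, Il36b, Il36g, Il36rn and Il1f10) include Il18, whose nearest peak was 28.9 kb away. Of 4 other receptor and decoy genes only Il1rapl1 had a peak, 216 kb inside its long body on X.

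Of 11 genes of the proximal signalling steps, 4 had a peak: Irak2, Irak3, Tab2 and Map3k7. Irak3, encoding the inhibitory IRAK family member IRAK-M, had 1 peak centred 3 bp beyond its 5′ end and another 307 bp beyond its 3′ end. Irak2, encoding an IRAK family kinase, had 1 peak 25.1 kb inside and 1 at 8.03 kb beyond its 5′ end. The 5′ peak of Irak3 was also within 20 kb of Tmbim4, and that of Irak2 within 20 kb of Brk1 and Vhl. Map3k7, encoding the kinase TAK1, and Tab2, encoding its binding partner, had 1 peak each inside the gene, 12.5 and 23.4 kb from the nearer end. Myd88, Irak1, Irak4 and Traf6 had none at 20 kb.

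Of 12 genes of the NF-κB arm, 7 had a peak, each a single one. The peaks of Nfkb1, Nfkb2, Rel and Nfkbiz lay inside these genes at 1.98, 0.401, 2.94 and 9.69 kb from the nearer end, and that of the kinase gene Ikbkb at 21.3 kb. Those of Rela and of Nfkbia, which encodes the inhibitor IκBα, lay 713 and 516 bp beyond the 3′ end. The Nfkb1, Nfkb2, Rela and Nfkbiz peaks were also within 20 kb of 1 or 2 other protein-coding genes.

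Of 9 genes of inflammasome processing, which yields mature IL-1β and IL-18, 5 had a peak. Nlrp3, a sensor that activates caspase-1, had 3, centred 78 bp beyond its 5′ end, 1.97 kb inside and 17.8 kb beyond its 3′ end. Nlrc4, an inflammasome gene of the response to bacterial proteins, had 1 centred 21 bp beyond its 5′ end. Aim2, a DNA sensor gene, had 1 inside at 14.1 kb. Gsdmd, encoding the pore protein gasdermin D, had 1 at 8.76 kb beyond its 5′ end, and Nek7, encoding a kinase that binds NLRP3, had 1 at 18.3 kb beyond its 3′ end. The Gsdmd peak was also within 20 kb of Mroh6, Naprt and Eef1d, the Aim2 peak of Ifi206, and the outer 3′ peak of Nlrp3 of Olfr222 and Olfr223. Casp1, Casp4, Pycard and Nlrp1b had none at 20 kb.

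Of the 35 pathway genes with a promoter entry, 3 had a window that a peak overlapped, namely Irak3, Nlrp3 and Nlrc4. Counted by window this was 3 of 49 (6.12%), beside 0.696% of all windows, and the difference was not tested. The Nlrc4 window (chr17:74459059-74459358, minus strand) lies wholly within its peak, chr17:74458966-74459365, as the Nlrp3 window does within its own. The Nlrc4 window is shown because it alone of these 3 held PAR bZIP letters, so it was picked by its letters. They are TTATGTAA, starting 65 bases before the annotated start. Capitals mark these and the RUNX letters, which start 247 bases before it.
Nlrc4: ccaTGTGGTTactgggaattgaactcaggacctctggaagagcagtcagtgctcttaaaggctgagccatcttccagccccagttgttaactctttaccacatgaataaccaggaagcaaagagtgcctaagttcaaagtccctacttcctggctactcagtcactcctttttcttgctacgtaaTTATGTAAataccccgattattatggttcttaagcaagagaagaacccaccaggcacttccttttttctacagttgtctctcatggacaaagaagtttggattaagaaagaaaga
The Irak3 and Nlrp3 windows held none of the letters searched.

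Shares in other cytokine families are given as values with no test, and the 10 IL-1 genes are not ranked among them because their peaks chose them. At 20 kb, gene body included, a peak was found at 17 of 73 other interleukin and interleukin receptor genes (23.3%), at 11 of 44 TNF superfamily and receptor genes (25%) and at 11 of 61 chemokine and receptor genes (18.0%), beside 15.3% of all protein-coding genes. At 100 kb these families had 41.1%, 63.6% and 52.5%, the other IL-1 pathway genes 55.8% and all protein-coding genes 36.9%. In the gene body the families had 9.59%, 13.6% and 4.92%, beside 6.94% of all protein-coding genes. Interleukin genes of the pathway list are counted among the other interleukin genes too.

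**Figure D4:**
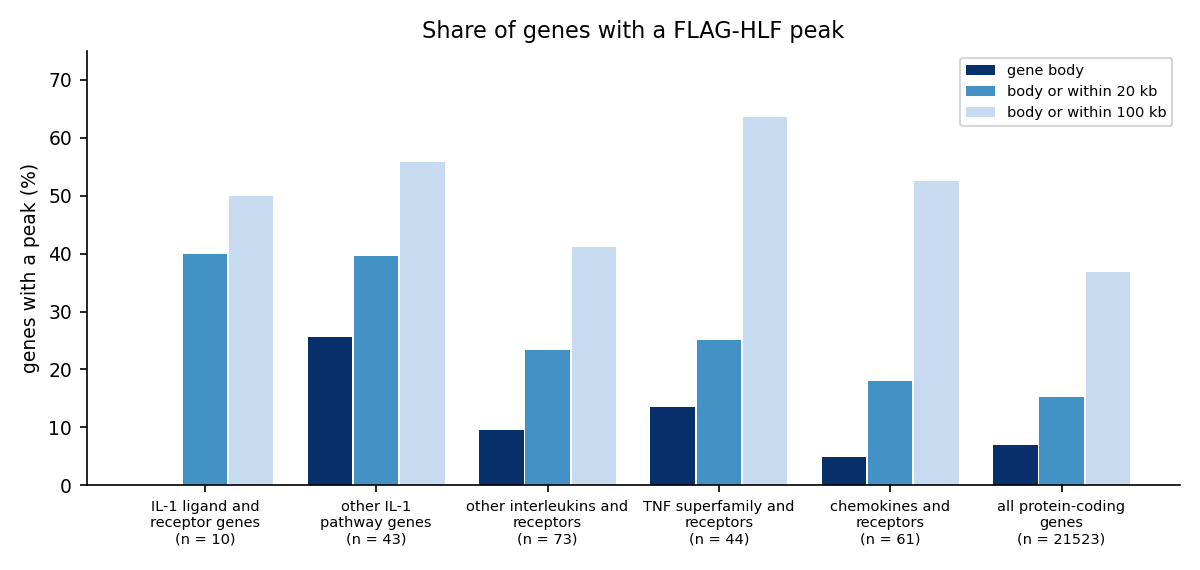
Share of genes in percent with a FLAG-HLF peak centre in the gene body, in the body or within 20 kb, and in the body or within 100 kb, for the 10 IL-1 ligand, antagonist and receptor genes, 4 other gene groups and all protein-coding genes, in 1 library with no error bars. The first group has no bar for gene bodies (0 of 10), and the other pathway genes have the tallest bar for gene bodies at 25.6%.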

How the data were processed

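One FLAG-HLF ChIP-seq library was used. The file the authors deposited gives only chromosome, start and end for each peak and carries no score or strand. Bowtie2 2.0.6, MACS2 2.0.10 and mm10 are named in the submitters' processing notes. Whether the control was used, which threshold was set and how all peaks came to be 400 bp wide is not stated in the labels. Fixed widths hide how far enrichment reached, so a peak was placed at its centre (start + 200). Genes came from a RefSeq table of GRCm38.p6, of which 49214 of 49997 rows on the 19 autosomes and X were used, and strand and starts from its promoter table. All 10 genes matched by symbol, and all 43 pathway genes matched, 4 of them by an older symbol. Exons and UTRs were not assigned. Counting was done with Python 3.11.15, numpy 2.4.6 and pandas 2.3.3, and was tested on simulated peaks. There is 1 library and no replicate, so no test was run. The members and lists were chosen with earlier results of these data known. The genes named are the 10 genes, the pathway genes with a peak within 20 kb or in the same role group, annotated genes around the peaks, and the 5 genes with most peaks. The genes of other runs and those without a peak were named after their values were seen.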

Additional observations from a re-analysis of the deposited data

How the results depend on the processing

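Of the 18 alternatives for counts over the 10 genes, the locus, the pathway list, the median distance and the promoter letters, 15 stayed within 1.5 times the reported value. This tally compares values without their background. The pathway count of 17 at 20 kb and 24 at 100 kb stayed within it, while the share of all protein-coding genes went from 15.3% to 36.9%. When each peak was given to one protein-coding gene only, 3 of the 10 genes had a peak at 100 kb in place of 5, Il18rap and Il1rl1 lost their peak to Il18r1 by construction, and Il1a kept 1 of its 4. With neighbouring centres joined only up to 10 kb, the largest run at the ligand locus was 1 peak, since every gap there is longer. Joined up to 50 kb, the ligand run kept its 4 peaks. At that limit 25 runs held at least 4 and 5 held more, against 8 and 1 at 25 kb. Over all annotated genes in place of protein-coding ones, the share with a peak in the body was 3.78%. By the gene body alone, 11 pathway genes had a peak. At 5 and 10 kb, 3 of the 10 genes had a peak, and at 50 kb 5 did. The share of all protein-coding genes was not counted at these distances, and both ligand genes are in each count. Nothing is therefore read from these counts beyond their dependence on the limit. Counted from the annotated start, Il18r1 was 35.8 kb from its peak. Alternatives by peak score and motif searches over the peaks were not run. The upstream rule, GC content, overlapped windows, windows with at least 2 TTATGTAA matches and 60 kb stretches were chosen after seeing the data. Absent scores and unknown depth limit every statement on genes without a peak. No paired analysis was possible because only the FLAG-HLF library was analysed here, and for the same reason no leave-out was made.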

Other observations

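Several other interleukin and interleukin receptor genes had as many peaks at 20 kb as Il1b or more. Il17ra, encoding an IL-17 receptor chain, had 3 peaks in the body or within 20 kb, of which 2 were inside. Il15, a cytokine gene of NK cell survival, and Il4ra, encoding the IL-4 receptor α chain, had 2 each at 20 kb, with 2 and 1 inside. Il22ra2, encoding a soluble IL-22 binding receptor, had 0 peaks inside, 2 at 20 kb and 5 at 100 kb, against 0, 2 and 4 for Il1b. Il20ra, an IL-20 receptor gene, had 0, 1 and 4, as did Il1a. These genes were ordered by their peak number, so their counts are a description of this list of peaks.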
